A study of Mus musculus with 11 samples.

Results

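Macrophages that met LPS and a prostaglandin together were compared with macrophages that met neither. The comparison rests on 8 arrays, 4 of cells given LPS plus PGE and 4 of untreated cells, out of 11 arrays in the series. Bone marrow came from wild-type C57Bl/6 mice in every group. It was cultured into macrophages over 1 week with 5 ng/ml macrophage colony-stimulating factor (mCSF), and the cells were replated 24 hours before use. The treated cells received 100 ng/ml LPS, the endotoxin of Gram-negative bacteria, together with 10 µM prostaglandin E (PGE) for 1 hour. Which prostaglandin E this was is not stated in the labels. Another group, 3 arrays from cells given the same LPS dose without PGE for the same time, enters the fit and is quoted where it bears on a gene. No cells were given PGE alone. The combined stimulus therefore cannot be divided into the part of each agent by this comparison.

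LPS is bound by Cd14 and by the receptor pair Tlr4 and Ly96, and signals through adaptor proteins to NF-kB, the MAP kinases and interferon regulatory factors. Prostaglandin E acts in macrophages mainly through the receptors Ptger2 and Ptger4. These raise cyclic AMP, which activates protein kinase A and the transcription factor CREB. Cyclic AMP is known in macrophages for raising Il10 and other regulatory genes and for lowering several inflammatory ones.

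Each gene symbol is represented by the probe set with the highest mean level, which gave 18755 genes. Levels are log2 intensities and a change is a difference of log2 levels, given as the limma estimate ± SE over the 11 arrays. The threshold for passing was 0.05 on the limma p after Benjamini-Hochberg adjustment, and a 2-fold change is a passing change of at least 1 on the log2 scale. Of the 18755 genes, 5946 passed (31.7%), 13.8% as rises and 17.9% as falls. Changes of at least 2-fold made up 2.97% of the genes, with 349 rises (1.86%) and 208 falls (1.11%). Arrays of the same group correlated at 0.997 to 0.998 over the genes and LPS plus PGE arrays with untreated arrays at 0.980 to 0.985. The labels do not say whether the 4 replicates were separate mice or cultures, so the p-values measure only the spread between these samples.

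Among these genes, which are those with 1 symbol, the rises were large and the falls were small. A change of at least 2 on the log2 scale was reached by 152 rises and 8 falls, one of at least 3 by 89 rises and 0 falls, and one of at least 5 by 26 rises. The 557 genes called at 2-fold had no overlap between the 4 treated and the 4 untreated arrays, where 35.1% of all genes had none. The call itself favours separate groups, so this lack of overlap is not separate support. Smaller changes went with how bright a gene was. When the genes were cut into 4 bins of equal size from the dimmest (bin 1) to the brightest (bin 4), the bins had median changes of 0.12, 0.16, -0.16 and -0.09. After cyclic loess normalization these medians were 0.03, 0.09, -0.02 and 0.01, and the passing genes split into 2129 rises and 1788 falls in place of 2587 and 3359. With equal array medians they split into 4499 and 2119, and after quantile normalization into 2596 and 2206. The 2-fold calls were 551 after cyclic loess, 550 with equal medians and 538 after quantile normalization.

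**Figure D1:**
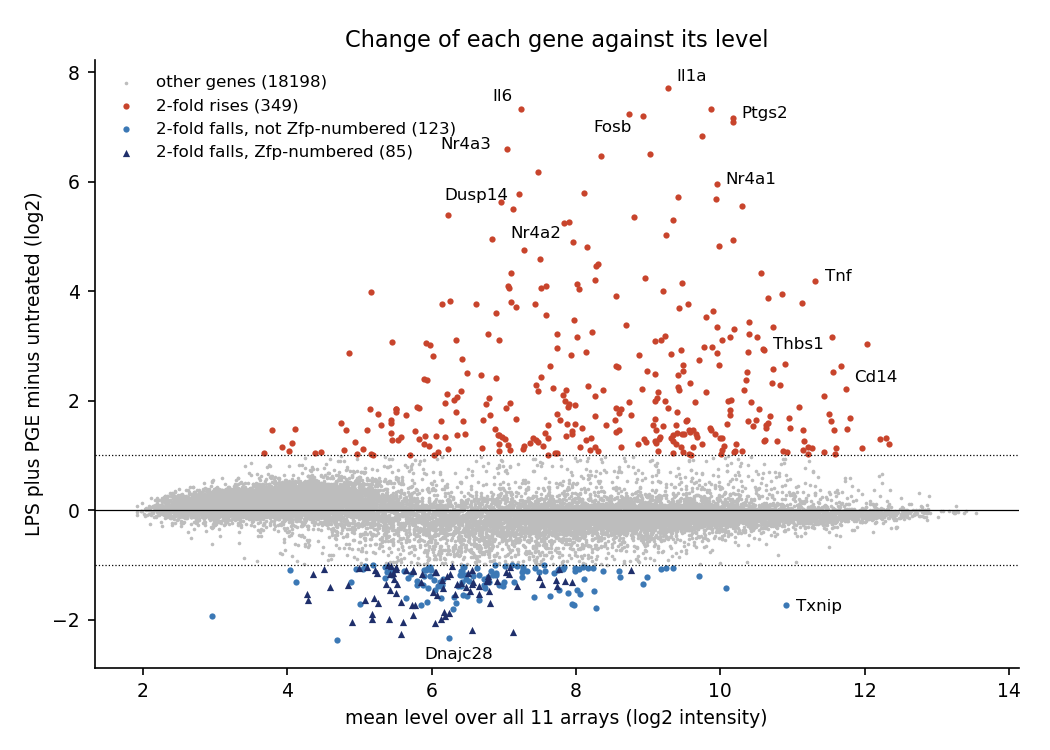
Each point is 1 of the 18755 genes, with its mean log2 intensity over the 11 arrays on the horizontal axis and its change (LPS plus PGE minus untreated, log2) on the vertical axis; dotted lines mark a 2-fold change. The 349 rises reach 7.72 and lie mostly at middle and high levels, while the 208 falls end at -2.37 and 85 of them are Zfp-numbered zinc finger genes.

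Macrophage identity was checked with 13 marker genes. The lineage markers Csf1r (the mCSF receptor), Adgre1 (an adhesion receptor of mature macrophages), Cd68 (a lysosomal protein) and Lyz2 (lysozyme) had untreated means of 12.54 ± 0.01, 12.51 ± 0.03, 12.78 ± 0.01 and 13.06 ± 0.04 (SD, n = 4), and treated means of 12.53 ± 0.01, 12.45 ± 0.02, 12.79 ± 0.05 and 12.93 ± 0.07 (SD, n = 4). None of these 4 passed the test, although the fall of Lyz2 (-0.13) did with a trended and robust variance (limma adjusted p = 0.0136) and without genes below the median level (0.0454). Itgam, Msr1, Mertk, Fcgr1, Mrc1 and Marco did not pass either. Marco was the dimmest of the 13, at 4.62 ± 0.21 untreated and 4.89 ± 0.24 treated (SD, n = 4). Of the 13 markers, Cd14 rose at least 2-fold, and Spi1 (-0.17 ± 0.05), the master transcription factor of the lineage, and Aif1 (-0.30 ± 0.08), an actin-binding protein, fell. Neither of these falls passed after quantile or cyclic loess normalization or with equal array medians. That of Spi1 also ended when replicate 2, 3 or 4 of either group was left out (limma adjusted p from 0.0678 to 0.0897), and that of Aif1 when untreated replicate 3 (0.0521) or treated replicate 1 (0.0555) was. The mean level of the 13 markers ran from 10.67 to 10.73 in untreated and from 10.77 to 10.82 in treated arrays. Without Cd14 the direction turned, with 10.68 to 10.76 in untreated and 10.61 to 10.66 in treated arrays over the other 12 markers. Markers of stroma, erythroid cells, lymphocytes and NK cells, neutrophils and dendritic cells had no 2-fold change in either direction, and those of mast cells and basophils had 2 rises, described below. In bulk RNA, fewer cells expressing a gene and less RNA per cell cannot be told apart.

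With predicted and small RNA genes left out, the 20 largest rises were mostly those of cytokines, chemokines, immediate-early factors and feedback regulators. The 4 untreated arrays of Il1a, an interleukin that acts as an alarm signal, read 4.92, 3.79, 4.82 and 4.36, and the treated arrays read 12.25, 12.16, 12.24 and 12.10. The groups lay more than 7 log2 units apart, and the change was 7.72 ± 0.20, or 210-fold (limma adjusted p = 3.11e-11). With LPS alone Il1a rose by 7.30 ± 0.21, and the difference between the stimuli did not pass (0.42 ± 0.21, limma adjusted p = 0.17). Il1b, the secreted fever-inducing interleukin, read 4.99, 5.20, 5.79 and 5.36 untreated and 12.78, 12.61, 12.68 and 12.57 treated (7.33 ± 0.14). Both interleukin genes were thus low in every untreated array and near the top of the scale in every treated one. Ptgs2, the inducible cyclooxygenase that starts prostaglandin synthesis, read 5.86, 5.89, 6.11 and 5.96 in untreated arrays and 13.09, 13.01, 13.03 and 13.06 in treated arrays (7.09 ± 0.09). At a mean of 13.05 ± 0.04 (SD, n = 4) its treated arrays were the brightest of these 20 genes. Outside the lists, Olr1, a scavenger receptor for oxidised lipoprotein, rose by 6.47 ± 0.15, from 4.56, 4.43, 4.65 and 4.38 to 11.18, 10.88, 10.86 and 10.98.

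**Figure D2:**
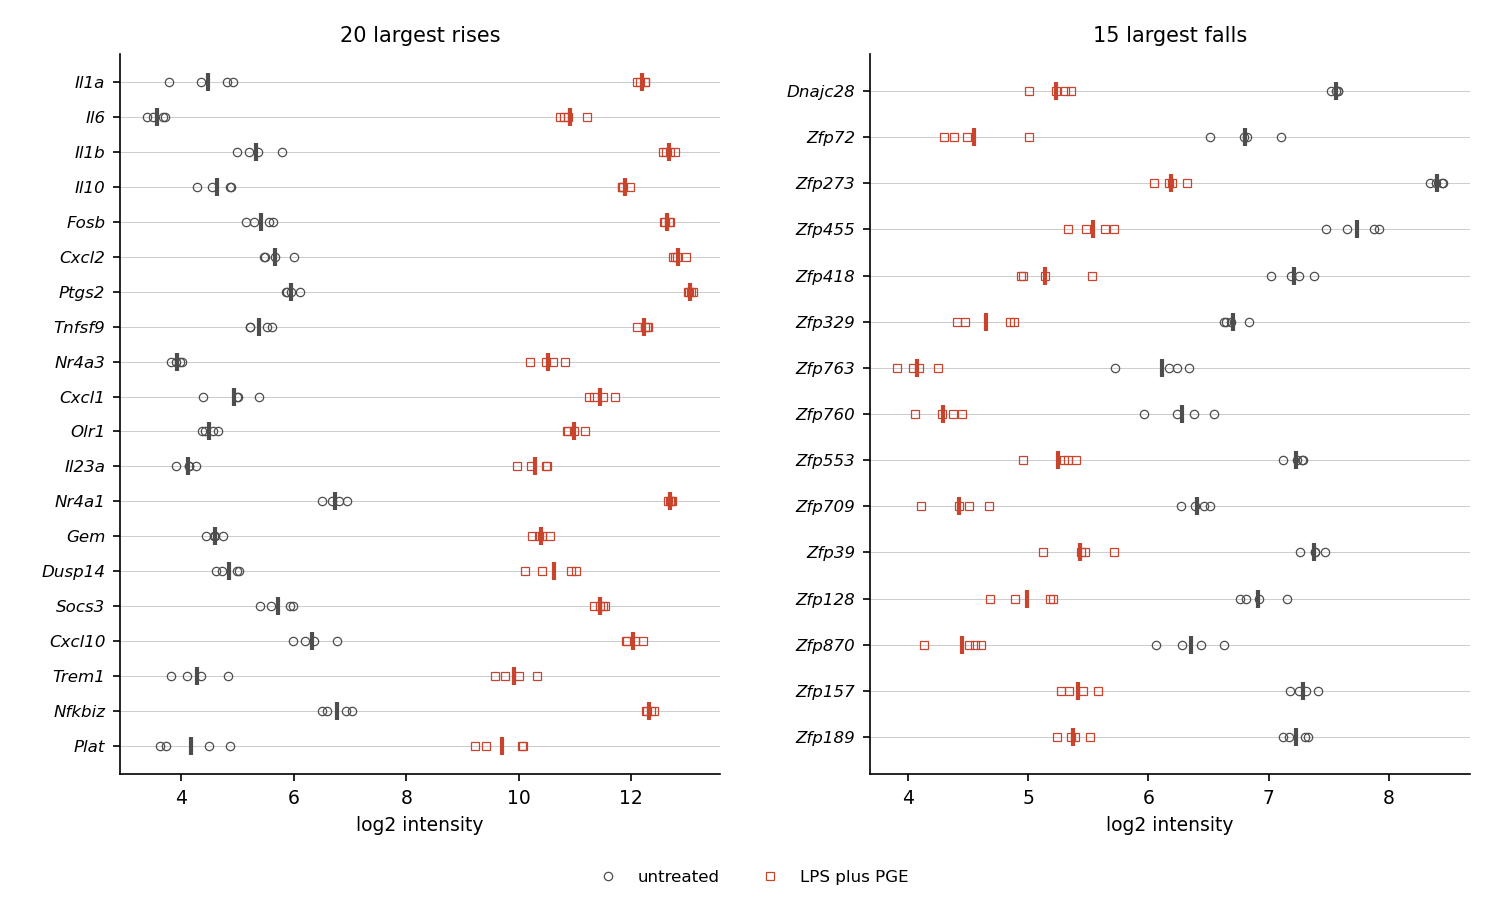
Log2 intensity in each untreated array (grey circles) and each LPS plus PGE array (red squares) for the 20 largest rises and the 15 largest falls, with a vertical tick at each group mean. Only genes without overlapping groups were eligible, and symbols of predicted genes and small RNA genes were left out. The rises run from 5.51 (Plat) to 7.72 (Il1a), and 14 of the 15 falls are Zfp-numbered genes.

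Genes known as targets of cAMP and CREB made up the list with the largest share of 2-fold rises. Of 29 measured members, 20 rose at least 2-fold and 0 fell by that much, with a median change of 1.62, beside 1.86% and a median of 0.02 for all genes. CREB binds the cAMP response element TGACGTCA, or the shorter element TGACG, which the full element contains. Elements were counted on both strands of windows from 250 bases before to 50 after a start site (RefSeq, GRCm38.p6). The shorter element was held by 19 of 31 promoters of the list (61.3%). It was held by 20.8% of all 32851 promoters, 25.2% of those of the genes tested and 37.6% of those of the 2-fold rises. The list is made of known targets, so its high share is not separate support. The promoters of the list belonged to 21 members that matched the table. The 250 bases before the Nr4a3 start site (chr4:48045055-48045304, plus strand) held TGACG or its reverse complement 4 times, in capitals here and in the sequences that follow, and are printed because Nr4a3 rose most of the NR4A genes.
Nr4a3: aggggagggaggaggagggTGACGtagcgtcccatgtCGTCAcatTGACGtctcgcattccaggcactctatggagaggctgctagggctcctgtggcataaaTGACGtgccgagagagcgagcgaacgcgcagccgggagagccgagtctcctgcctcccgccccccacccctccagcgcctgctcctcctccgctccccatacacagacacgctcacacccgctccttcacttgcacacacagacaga
Shorter stretches around a TGACG element are printed for other large rises of the list, from Nr4a2 (chr2:57124125-57124165, minus strand), Fosb (chr7:19310083-19310123, minus strand), Fos (chr12:85473806-85473846, plus strand), Dusp1 (chr17:26508593-26508633, minus strand), Nfil3 (chr13:52981076-52981116, minus strand), Odc1 (chr12:17544776-17544816, plus strand) and Klf4 (chr4:55532685-55532725, minus strand).
Nr4a2: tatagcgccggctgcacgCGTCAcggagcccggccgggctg
Fosb: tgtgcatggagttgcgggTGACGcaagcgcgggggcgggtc
Fos: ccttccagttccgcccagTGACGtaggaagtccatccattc
Dusp1: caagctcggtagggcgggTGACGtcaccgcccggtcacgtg
Nfil3: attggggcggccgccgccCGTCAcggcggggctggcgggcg
Odc1: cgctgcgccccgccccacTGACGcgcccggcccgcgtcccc
Klf4: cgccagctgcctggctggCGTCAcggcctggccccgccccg
In the Dusp1 stretch the capitals open a full element, which 1.79% of all promoters and 2.42% of those of the genes tested held. A match describes these letters and does not show that a factor bound there. Of the genes printed, Fosb (3.27 ± 0.12) and Dusp1 (2.80 ± 0.06) also rose with LPS alone, whereas Klf4 (0.37 ± 0.12) did not pass. The counts of this list are against untreated cells and do not separate PGE from LPS.

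The NR4A genes encode orphan nuclear receptors that act as immediate-early transcription factors. Nr4a1 read 6.80, 6.50, 6.94 and 6.69 in untreated arrays and 12.72, 12.65, 12.70 and 12.68 in treated arrays (5.96 ± 0.09). Nr4a2 read 6.19, 5.94, 6.04 and 6.04 and 11.01, 10.77, 10.86 and 11.17 (4.90 ± 0.09), and Nr4a3 read 3.91, 3.83, 3.98 and 4.01 and 10.82, 10.20, 10.48 and 10.61 (6.60 ± 0.11). In all 3 genes every treated array was above every untreated array by more than 4 log2 units, with limma adjusted p-values from 9.43e-13 to 1.39e-12. In cells given LPS without PGE the means were 10.61, 6.51 and 6.56, and LPS plus PGE exceeded them by 2.07 ± 0.10, 4.44 ± 0.09 and 3.97 ± 0.12 (limma adjusted p = 9.29e-08, 1.86e-10 and 1.68e-09).

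Fosb, a subunit of the dimeric factor AP-1, rose from 5.30, 5.57, 5.16 and 5.64 to 12.58, 12.67, 12.68 and 12.59 (7.21 ± 0.11), and its treated arrays lay closer together than its untreated ones. Nfil3, a basic leucine zipper repressor, read 6.55, 6.48, 6.72 and 6.77 untreated and 10.94, 10.86, 10.83 and 10.72 treated (4.20 ± 0.09). Odc1, the first enzyme of polyamine synthesis, rose by 3.76 ± 0.06 from an untreated mean of 7.93 ± 0.06 (SD, n = 4). Neither Nfil3 nor Odc1 had overlapping groups. Klf4 (2.28 ± 0.11), a Krüppel-like factor, Irs2 (2.09 ± 0.06), an insulin receptor substrate, and Thbs1 (2.94 ± 0.13), a matrix glycoprotein, rose too. Thbs1 read 9.34, 9.25, 9.80 and 9.79 untreated, 9.39, 9.39 and 9.64 with LPS and 12.54, 12.34, 12.47 and 12.58 with LPS plus PGE, so that its untreated and LPS arrays overlapped and its LPS plus PGE arrays lay above both. Per1, a clock gene, rose by 1.39 ± 0.08 and Rgs2, an inhibitor of G protein signalling, by 1.06 ± 0.09. The metabolic coactivator Ppargc1a (0.19 ± 0.10) and the neurotrophin Bdnf (0.18 ± 0.11) did not pass. Atf3, a stress-induced factor, was already at 12.14 ± 0.07 (SD, n = 4) in untreated arrays and fell by 0.40 ± 0.09.

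The receptors and enzymes of the PGE and cAMP pathway changed less than its targets. Of 38 measured members, 3 rose at least 2-fold and 0 fell by as much, with a median of 0.06. Ptger4 read 8.32, 8.12, 8.32 and 8.43 untreated and 9.53, 9.75, 9.66 and 9.56 treated (1.32 ± 0.08). Ptger2 went the other way, from 7.18, 7.09, 7.13 and 7.27 to 6.56, 6.54, 6.54 and 6.29 (-0.68 ± 0.07, limma adjusted p = 2.27e-05). The 2 receptor genes thus moved in opposite directions, in each case without overlap of the arrays. With LPS alone Ptger4 stood at 10.23, above its level with LPS plus PGE by a difference of -0.60 ± 0.09 (LPS plus PGE minus LPS, limma adjusted p = 0.00116). Pde4b, a phosphodiesterase that degrades cAMP, rose by 3.39 ± 0.09, and its relative Pde4d by 0.60 ± 0.09. Sik1, a salt-inducible kinase that restrains the CREB coactivators, read 9.04, 9.14, 9.17 and 9.12 untreated, 8.24, 8.51 and 8.69 with LPS and 10.66, 10.80, 10.80 and 10.70 with LPS plus PGE (1.62 ± 0.09). Its LPS arrays were the lowest of the 3 groups and its LPS plus PGE arrays the highest. Crem, a CREB-family gene with an inducible repressor form, is listed with the cAMP and CREB targets and not among these 38. It read 6.36, 6.33, 6.35 and 6.32 untreated, 6.43, 6.29 and 6.32 with LPS and 7.99, 7.60, 7.73 and 7.98 with LPS plus PGE (1.48 ± 0.09), and only the last group stood apart. Rapgef3, a cAMP-activated exchange factor also called Epac, fell (-0.73 ± 0.07). Gnas, the stimulatory G protein, did not pass (-0.11 ± 0.06).

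Immediate-early transcription factors, which are induced without new protein synthesis, rose in large numbers. Of 27 AP-1, EGR and related genes, 16 rose at least 2-fold and 0 fell by that much (median 1.72), beside 1.86% and 1.11% of all genes. Egr1, a zinc finger factor induced through the ERK kinases, read 5.87, 6.23, 6.25 and 6.01 in untreated arrays and 10.93, 11.27, 11.15 and 11.08 in treated arrays (5.02 ± 0.10). With LPS alone it was at 10.98, and the difference between the stimuli was 0.13 ± 0.11 and did not pass (limma adjusted p = 0.4). Csrnp1 (4.82 ± 0.07), a nuclear protein induced by AXIN, Maff (4.14 ± 0.12), a small Maf protein, Ier3 (4.05 ± 0.11), a survival-linked early gene, and Fos (3.35 ± 0.12) followed in size. Jun, at 10.52 ± 0.06 (SD, n = 4) the most abundant AP-1 gene of those with a 2-fold rise in untreated arrays, rose by 1.13 ± 0.08. Fosl2, another FOS relative, rose by 3.17 ± 0.06 and exceeded its level with LPS alone by 2.05 ± 0.07 (limma adjusted p = 2.42e-09). Mafg, another small Maf protein, did not pass (-0.02 ± 0.08). Among 17 KLF and C/EBP factors there were 4 rises of at least 2-fold, in Klf4, Cebpb (2.15 ± 0.06), Klf7 (1.67 ± 0.16) and Klf6 (1.02 ± 0.06). Cebpa, which drives myeloid differentiation, fell (-0.58 ± 0.09), as did Klf3 (-0.63 ± 0.08) and Klf11 (-0.62 ± 0.11). Of 26 bHLH, Id and Myc network genes 6 rose at least 2-fold, led by Myc (2.66 ± 0.08), the growth regulator, and its antagonist Mxd1 (1.64 ± 0.09). Ahr, a ligand-activated factor, rose by 1.39 ± 0.11 and Mxi1, another Myc antagonist, by 1.15 ± 0.07. Mxi1 was at 9.04 with LPS alone, the level of untreated cells (9.04).

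The NF-kB list held 14 rises of at least 2-fold among 27 members and 0 falls of that size (median 1.13), beside 1.86% and 1.11% of all genes. Genes of IkB proteins and of the enzyme A20 were among its larger rises. Nfkbiz, an atypical IkB protein that acts in the nucleus, read 6.93, 6.51, 6.60 and 7.03 untreated and 12.41, 12.26, 12.34 and 12.27 treated (5.55 ± 0.11). Tnfaip3, the ubiquitin-editing enzyme A20, read 7.75, 8.05, 7.69 and 7.74 and 12.13, 12.13, 12.18 and 12.12 (4.33 ± 0.08), and Nfkbia, which holds NF-kB in the cytoplasm, 9.59, 9.57, 9.59 and 9.44 and 12.70, 12.81, 12.72 and 12.65 (3.17 ± 0.06). None of the 3 had overlapping groups, and all 3 treated means lay above 12. The LPS plus PGE minus LPS differences of the 3 were -0.01 ± 0.12, 0.03 ± 0.08 and 0.04 ± 0.06, and none passed (limma adjusted p = 0.939, 0.789 and 0.626). Nfkbie, a further IkB protein, rose by 3.64 ± 0.07 and did exceed its LPS level, by 0.70 ± 0.08 (limma adjusted p = 0.000176). The subunit genes rose by 1.76 ± 0.07 (Rel), 1.44 ± 0.07 (Relb), 1.40 ± 0.08 (Nfkb2) and 0.28 ± 0.06 (Rela). Of the kinase complex, Ikbkg, its regulatory subunit, fell (-0.37 ± 0.07) and Ikbkb (0.05 ± 0.07) did not pass. The NF-kB motif was found in 13 of 33 promoters of the list (39.4%). It was found in 4.51% of all promoters, 4.98% of those of the genes tested and 14.4% of those of the 2-fold rises. For the chemokines that share it was 6 of 23 promoters (26.1%). The 250 bases before the start site of Cxcl2 (chr5:90903649-90903898, plus strand) are printed as the example with the largest chemokine rise, with the motif and its overlapping match on the other strand in capitals.
Cxcl2: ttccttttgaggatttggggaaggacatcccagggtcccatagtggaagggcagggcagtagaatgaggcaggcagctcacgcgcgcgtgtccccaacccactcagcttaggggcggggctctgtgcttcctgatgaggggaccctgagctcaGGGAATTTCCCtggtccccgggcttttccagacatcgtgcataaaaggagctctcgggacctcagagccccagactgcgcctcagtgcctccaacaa

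Of 27 interleukins and other cytokines 14 rose at least 2-fold and 0 fell by that much (median 1.47), beside 1.86% and 1.11% of all genes. Il10, the main anti-inflammatory cytokine of macrophages, read 4.55, 4.29, 4.88 and 4.87 untreated and 11.98, 11.84, 11.84 and 11.86 treated (7.23 ± 0.13, 151-fold, limma adjusted p = 1.06e-12). Il6, a cytokine of the acute phase, read 3.40, 3.71, 3.68 and 3.51 untreated, 7.35, 7.33 and 7.01 with LPS and 11.22, 10.74, 10.80 and 10.87 with LPS plus PGE (7.33 ± 0.12). The 3 groups of Il6 lay in 3 separate ranges. Because its untreated mean lay below the lower quartile of the array, the untreated level was not told from none and the change is a lower limit. The Il6 promoter (chr5:30012864-30013113, plus strand) is printed because it held TGACG on the minus strand at position -135 from the start site, the NF-kB motif at position -44 and the AP-1 motif TGANTCA, here TGAGTCA, at position -249, all in capitals.
Il6: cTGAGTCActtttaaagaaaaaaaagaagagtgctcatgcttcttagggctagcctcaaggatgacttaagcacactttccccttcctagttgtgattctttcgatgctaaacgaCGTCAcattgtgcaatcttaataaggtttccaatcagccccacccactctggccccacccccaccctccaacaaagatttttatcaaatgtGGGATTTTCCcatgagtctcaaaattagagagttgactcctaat

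Other members of the interleukin-6 family rose as well. Lif read 3.71, 3.63, 3.64 and 3.95 untreated and 9.69, 8.54, 9.01 and 9.29 treated (5.40 ± 0.20, also a lower limit), Osm rose by 4.25 ± 0.10 and Clcf1 by 3.57 ± 0.12. Il23a, which pairs with the Il12b product to form interleukin-23, read 4.15, 4.27, 4.15 and 3.91 untreated, 8.23, 8.37 and 7.91 with LPS and 10.50, 9.96, 10.22 and 10.49 with LPS plus PGE (6.17 ± 0.13). Il12b itself read 4.52, 4.25, 4.14 and 4.22, 9.33, 10.06 and 9.21 and 8.23, 7.87, 8.07 and 8.20 (3.81 ± 0.16). These 2 partners thus stood in opposite order in the stimulated groups, with Il23a above its LPS level by 2.12 ± 0.15 and Il12b below by -1.44 ± 0.18 (limma adjusted p = 2.75e-06 and 0.000323). Il12a, which pairs with the Il12b product in interleukin-12, did not pass (0.25 ± 0.14), except without untreated replicate 1 (0.38, limma adjusted p = 0.0472). Tnf, an early inflammatory cytokine, read 8.59, 8.46, 8.73 and 8.44 untreated and 12.80, 12.75, 12.73 and 12.68 treated (4.18 ± 0.07), and was lower than with LPS alone by -0.33 ± 0.07 (limma adjusted p = 0.00924). Il1rn, the interleukin-1 receptor antagonist, rose by 3.69 ± 0.11, and Il1r2, the decoy receptor, read 5.00, 4.32, 4.97 and 4.56 untreated, 5.09, 4.97 and 4.78 with LPS and 8.40, 8.40, 8.50 and 8.60 with LPS plus PGE (3.76 ± 0.14). LPS arrays of Il1r2 overlapped the untreated ones. Of the colony-stimulating factors, Csf2 rose by 3.02 ± 0.27, Csf1 by 1.73 ± 0.18 and Csf3 by 1.47 ± 0.13. Il16, a lymphocyte attractant, was the 1 cytokine that fell (-0.79 ± 0.07), and Tgfb1 (0.01 ± 0.06) and Mif (-0.05 ± 0.06) did not pass.

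Within the TNF superfamily 5 of 27 members rose at least 2-fold. Tnfsf9, the ligand of the costimulatory receptor 4-1BB, read 5.52, 5.22, 5.22 and 5.61 untreated and 12.30, 12.10, 12.24 and 12.27 treated (6.84 ± 0.10). Tnfsf4, the OX40 ligand, rose by 3.82 ± 0.24, Cd40 by 3.19 ± 0.20 and Tnfsf14, also called LIGHT, by 2.07 ± 0.17. Tnfrsf1a, a receptor for the Tnf product, was abundant and did not pass (-0.05 ± 0.06).

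Chemokines gave 13 rises of at least 2-fold among 31 members (median 0.55), and the rest were mostly dim. Cxcl2, a neutrophil attractant, read 5.67, 6.01, 5.49 and 5.48 in untreated arrays and 12.97, 12.81, 12.74 and 12.77 in treated arrays (7.16 ± 0.11). Its neighbour Cxcl1 rose by 6.50 ± 0.18, the interferon-linked Cxcl10 by 5.69 ± 0.14, and the monocyte attractants Ccl2 and Ccl7 by 5.35 ± 0.12 and 5.24 ± 0.20. Ccl3 and Ccl4, both macrophage inflammatory proteins, differed in where they began. Ccl3 was already at 11.32, 11.35, 11.37 and 11.52 in untreated arrays and rose by 1.31 ± 0.06, whereas Ccl4 went from 5.94, 5.82, 5.68 and 5.92 to 10.00, 9.69, 9.65 and 9.71 (3.92 ± 0.09). Ccl4 was lower than with LPS alone by -0.81 ± 0.10 and Ccl3 by -0.30 ± 0.07 (limma adjusted p = 0.000352 and 0.0108). Among 21 chemoattractant receptors Ccrl2, an atypical receptor that binds chemerin, rose by 3.95 ± 0.06 and Ccr1, a receptor of Ccl3, by 1.01 ± 0.08, just past 2-fold. The Ccr1 rise was under 2-fold when untreated replicate 1 (0.96) or 4 (0.98) or, among treated arrays, replicate 2 (0.98) was left out. S1pr2, a sphingosine phosphate receptor, fell (-0.89 ± 0.11), as did C5ar2, the second complement C5a receptor (-0.52 ± 0.07).

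Negative regulators of the MAP kinases and of cytokine receptors were among the larger rises. Of 21 MAPK phosphatase and Sprouty genes 10 rose at least 2-fold (median 0.90). Dusp14 read 5.00, 5.03, 4.62 and 4.73 untreated, 5.78, 6.04 and 5.64 with LPS and 11.02, 10.11, 10.41 and 10.93 with LPS plus PGE (5.78 ± 0.19), and its LPS plus PGE minus LPS difference of 4.80 ± 0.20 was the largest among the 2-fold calls. Dusp5 rose by 5.30 ± 0.07 and Dusp2 by 4.81 ± 0.10, both nuclear phosphatases. Dusp1, the most abundant at 10.17 ± 0.09 untreated (SD, n = 4), reached 13.19, 13.22, 13.22 and 13.17 (3.03 ± 0.06). The ERK feedback inhibitors Spred2 (1.55 ± 0.08) and Spry1 (1.17 ± 0.12) rose. Dusp6, often read as a marker of ERK output, did not pass (-0.11 ± 0.10). Of 23 SOCS, PIM and JAK-STAT genes 6 rose and 1 fell at least 2-fold. Socs3, which blocks interleukin-6 receptor signalling, read 5.60, 5.98, 5.41 and 5.93 and 11.53, 11.33, 11.44 and 11.50 (5.72 ± 0.11), and Cish, Socs1 and the kinases Pim3 and Pim1 rose by 3.21 ± 0.12, 2.12 ± 0.14, 2.84 ± 0.09 and 2.63 ± 0.07. Stat2, a subunit of the interferon-activated factor, fell (-1.03 ± 0.06), by less than 2-fold after quantile and cyclic loess normalization and with equal array medians. Among 22 mRNA decay factors 5 rose at least 2-fold, among them Zc3h12a (2.74 ± 0.05), the endonuclease Regnase-1, and Zfp36 (2.32 ± 0.09), which binds the AU-rich elements of cytokine transcripts. Of 22 RGS and small GTPase genes 8 rose at least 2-fold, with Gem, a GTPase that blocks calcium channels, at 5.80 ± 0.08, Rab20 at 2.54 ± 0.07 and Rhou at 2.47 ± 0.14. Rgs3 fell (-0.83 ± 0.08).

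LPS sensing genes had no common direction. Of 23 members 3 rose and 1 fell at least 2-fold, with a median of -0.17 (-0.08 after cyclic loess normalization). Tlr2, the lipoprotein receptor, read 8.92, 8.85, 9.07 and 8.70 untreated and 11.71, 11.16, 11.29 and 11.45 treated (2.52 ± 0.12). Cd14, the LPS co-receptor, read 10.58, 10.48, 10.41 and 10.50 and 12.75, 12.69, 12.68 and 12.73 (2.22 ± 0.06), and Nod2, a sensor of peptidoglycan fragments, rose by 1.94 ± 0.09. Tlr4, the receptor for LPS itself, read 9.07, 9.06, 9.09 and 9.05 untreated and 8.34, 8.56, 8.34 and 8.39 treated, and fell (-0.66 ± 0.06, limma adjusted p = 6.28e-06). Tirap, an adaptor of Tlr2 and Tlr4, fell from 8.72, 8.76, 8.76 and 8.77 to 7.55, 7.63, 7.92 and 7.66 (-1.06 ± 0.08); after quantile and cyclic loess normalization and with equal array medians its fall was under 2-fold. Both genes had separate groups. Ly96, the partner of Tlr4, did not pass (-0.22 ± 0.10). It passed without LPS replicate 1 (-0.22, limma adjusted p = 0.0124) and when only the 8 arrays of the 2 groups were fitted (limma adjusted p = 0.00698, and 0.0219 with the replicate number as a block).

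Interferon genes and interferon regulatory factors gave 8 rises of at least 2-fold among 32. Ifnb1, interferon-beta, read 4.05, 3.82, 3.54 and 3.93 untreated and 7.02, 7.05, 6.87 and 6.59 treated (3.05 ± 0.14), and Gbp5, an interferon-induced GTPase, rose by 3.77 ± 0.13. Isg15, a ubiquitin-like modifier, rose by 2.76 ± 0.15 and Oasl1 by 2.05 ± 0.14. Irf1 read 9.42, 9.42, 9.32 and 9.36 untreated, 11.89, 12.06 and 11.93 with LPS and 10.84, 11.05, 11.18 and 10.84 with LPS plus PGE (1.60 ± 0.08), so the treated arrays lay between the other groups. Irf8, a lineage factor of macrophages, fell (-0.42 ± 0.07) and Irf9, the DNA-binding partner of Stat2, fell (-0.37 ± 0.06). Irf5 (-0.04 ± 0.05) and Irf2 (-0.11 ± 0.06) did not pass.

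Of 23 growth and angiogenic factors 8 rose and 1 fell at least 2-fold. Vegfa, the main endothelial growth factor, read 8.45, 8.65, 8.70 and 8.53 untreated, 9.20, 9.41 and 9.50 with LPS and 11.49, 11.59, 11.65 and 11.54 with LPS plus PGE (2.98 ± 0.08). Inhba, the activin A subunit, read 5.02, 5.50, 5.06 and 5.45, 6.35, 6.82 and 6.18 and 9.10, 8.38, 8.74 and 9.20 (3.60 ± 0.19). Both exceeded their LPS levels, by 2.20 ± 0.09 and 2.41 ± 0.21 (limma adjusted p = 1.84e-08 and 1.94e-05). Hbegf, an EGF receptor ligand, rose by 2.37 ± 0.15 and Pgf, placental growth factor, by 2.02 ± 0.24. Angptl4, a lipoprotein lipase inhibitor, fell (-1.68 ± 0.08). Of 30 coagulation, plasminogen and matrix genes 8 rose at least 2-fold and 0 fell by that much. Plat, tissue plasminogen activator, read 4.50, 4.87, 3.73 and 3.63 untreated and 10.06, 9.23, 9.42 and 10.07 treated (5.51 ± 0.30). F3, tissue factor, which starts coagulation, rose by 4.09 ± 0.14, and Serpinb2, an inhibitor of plasminogen activators, by 4.09 ± 0.13. Procr and Thbd, receptors that activate the anticoagulant protein C, both rose. Procr read 8.92, 8.92, 8.80 and 8.82 untreated, 9.15, 9.13 and 8.84 with LPS and 11.91, 11.57, 11.72 and 11.78 with LPS plus PGE (2.88 ± 0.09). Thbd read 7.29, 7.28, 7.16 and 7.31, 6.45, 6.27 and 6.83 and 9.59, 9.29, 9.23 and 9.32 (2.10 ± 0.11), and its LPS arrays were the lowest.

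Genes listed under alternative and regulatory activation were mixed. Of 22 listed genes of alternative and regulatory activation 7 rose at least 2-fold. Trem1, an amplifier of inflammatory signals, read 4.84, 4.10, 3.82 and 4.36 untreated, 7.04, 6.38 and 6.39 with LPS and 10.32, 9.58, 9.75 and 10.01 with LPS plus PGE (5.63 ± 0.23). Tgm2, a transglutaminase, rose by 1.89 ± 0.07 and Sphk1, a sphingosine kinase, by 1.11 ± 0.12. Arg1 (0.10 ± 0.12) and Mrc1 (-0.11 ± 0.07), classed as alternative activation markers, did not pass. Among 18 antigen presentation genes 5 rose at least 2-fold, with the C-type lectin Clec4e at 3.88 ± 0.09, and the T cell costimulators Cd86 at 2.17 ± 0.12 and Cd80 at 1.23 ± 0.11. Cd86 read 6.58, 6.35, 6.54 and 6.37 untreated and 8.78, 8.47, 8.53 and 8.73 treated, with no overlap. Ciita, the activator of class II genes, fell (-0.61 ± 0.09), while H2-Eb1 rose a little (0.44 ± 0.07) and Cd74 (0.02 ± 0.06) did not pass. Cd274, the PD-1 ligand, rose by 1.29 ± 0.07.

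Of 19 glycolysis and glucose uptake genes 4 rose at least 2-fold (21.1%, beside 1.86% of all genes), namely Acod1 (4.94 ± 0.16), which makes itaconate, and the transporters Slc2a6 (1.51 ± 0.09), Slc2a1 (1.46 ± 0.07) and Slc16a3 (1.27 ± 0.09). The glycolytic enzymes Gapdh (0.07 ± 0.05) and Aldoa (-0.01 ± 0.05) did not pass, although Gapdh did with equal array medians (0.15, limma adjusted p = 0.0409). Hk2 (0.73 ± 0.07) and Pfkp (0.26 ± 0.06), kinases of glycolysis, passed as rises of less than 2-fold, and Pfkfb4 fell (-0.48 ± 0.08). Ddit4, an inhibitor of mTORC1, read 5.67, 5.94, 5.34 and 5.63 untreated, 5.96, 6.44 and 6.46 with LPS and 9.57, 9.09, 9.29 and 9.47 with LPS plus PGE (3.71 ± 0.15). Hilpda, a lipid droplet protein, read 6.37, 6.12, 6.29 and 6.24, 7.60, 7.73 and 7.89 and 10.79, 10.78, 10.69 and 10.64 (4.47 ± 0.08). Neither gene's LPS plus PGE arrays overlapped those of another group. Of 18 stress genes 4 rose at least 2-fold, Ppp1r15a (3.17 ± 0.08) and Gadd45b (2.52 ± 0.07) among them. Nupr1, a stress-induced chromatin protein, read 7.11, 6.86, 6.89 and 7.01, 9.50, 10.16 and 9.68 and 8.50, 7.98, 8.26 and 8.37 (1.31 ± 0.14), below its LPS level. Of 22 oxidant and antioxidant genes 5 rose and 1 fell at least 2-fold. The metallothionein Mt2 rose by 2.37 ± 0.12, the cystine transporter Slc7a11 by 2.25 ± 0.15, and Osgin1, an oxidative stress growth inhibitor, fell (-1.72 ± 0.11). Hdc, the histamine-forming enzyme, and Gata2, listed as mast cell markers, rose by 1.73 ± 0.09 and 1.34 ± 0.13, while the other 8 markers of that list, the mast cell protease Cpa3 (0.02 ± 0.16) included, did not pass. The mean level of the 10 mast cell markers ran from 3.82 to 3.90 in untreated and from 4.21 to 4.32 in treated arrays, and 6 of them lay below the lower quartile of the arrays in both groups. Without Hdc and Gata2 the mean of the other 8 ran from 3.42 to 3.58 and from 3.57 to 3.68. Phagocytic and complement receptors (24), sterol genes (20) and housekeeping genes (13) had no 2-fold change in either direction. Within them 1, 10 and 1 genes passed the test, beside 31.7% of all genes. The 1 chromatin regulator of 27 with a 2-fold change was Kdm6b, a histone demethylase, which went from 7.05, 7.06, 7.06 and 6.95 to 11.29, 11.05, 11.16 and 11.21 (4.15 ± 0.08).

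**Figure D3:**
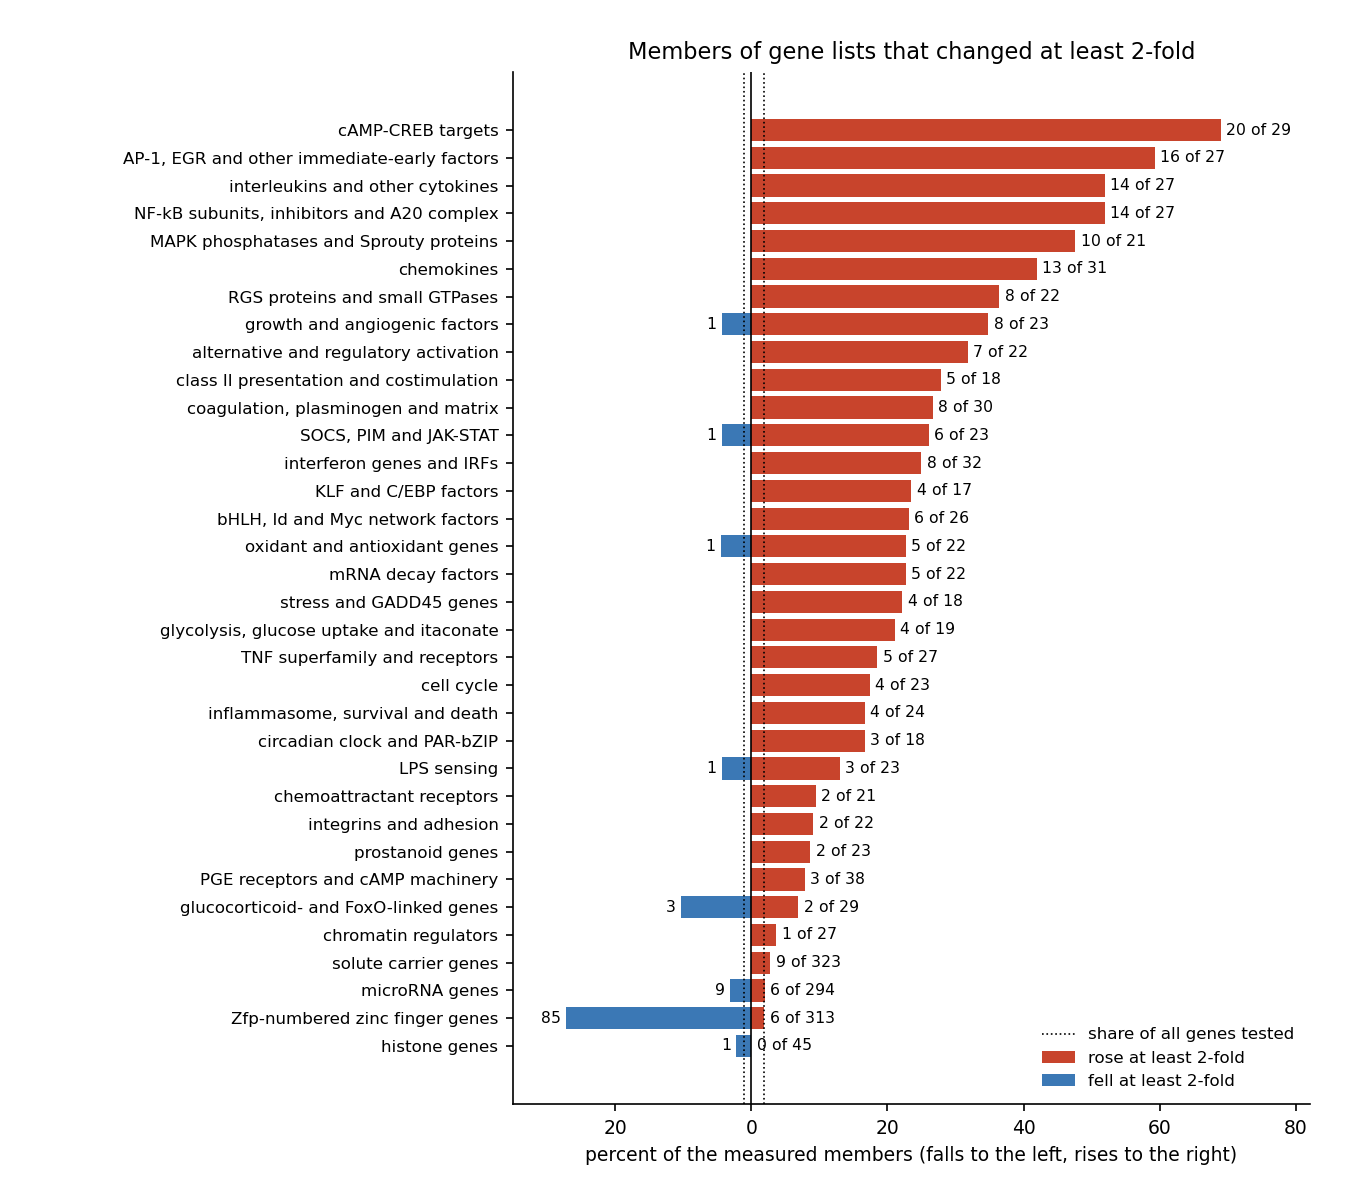
Bars give the share of the measured members of each gene list that rose (right, red) or fell (left, blue) at least 2-fold, for the lists with any such member, with the counts beside them; dotted lines mark the shares over all 18755 genes (1.86% and 1.11%). Targets of cAMP and CREB have the largest share of rises (20 of 29) and the Zfp-numbered genes the largest share of falls (85 of 313).

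Among the genes tested, falls of at least 2-fold centred on zinc finger genes. The 313 genes named Zfp plus a number, most of which encode DNA-binding proteins with C2H2 zinc fingers and many of which are KRAB-type repressors, included 85 of the 208 falls of at least 2-fold (40.9%), although they were 1.7% of the genes tested. In all, 217 fell and 18 rose, beside 17.9% and 13.8% of all genes, with a median change of -0.55. After cyclic loess normalization 193 fell and the median was -0.47. Fewer falls of 2-fold size were left when genes below the median level were dropped (46). Zfp72 read 6.80, 6.51, 7.10 and 6.82 untreated and 4.38, 5.01, 4.49 and 4.30 treated (-2.27 ± 0.18), Zfp273 read 8.44, 8.34, 8.39 and 8.45 and 6.05, 6.32, 6.20 and 6.17 (-2.22 ± 0.10), and Zfp455 read 7.88, 7.65, 7.92 and 7.48 and 5.33, 5.48, 5.71 and 5.64 (-2.19 ± 0.24). The treated arrays of each lay below all untreated arrays by at least 1 log2 unit. Their means with LPS alone were 5.30, 6.69 and 6.34, between the other groups. The level of the genes was set beside the change, because small changes went with it. In bin 2 of the 4 level bins 39.8% of 98 Zfp-numbered genes and 0.6% of 4591 other genes fell at least 2-fold. In bin 3 the shares were 27.4% of 164 and 1.9% of 4524. In bins 1 and 4, 0 of 24 and 1 of 27 Zfp-numbered genes did. Zinc finger genes resemble each other in sequence, and the share of signal from relatives was not tested.

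**Figure D4:**
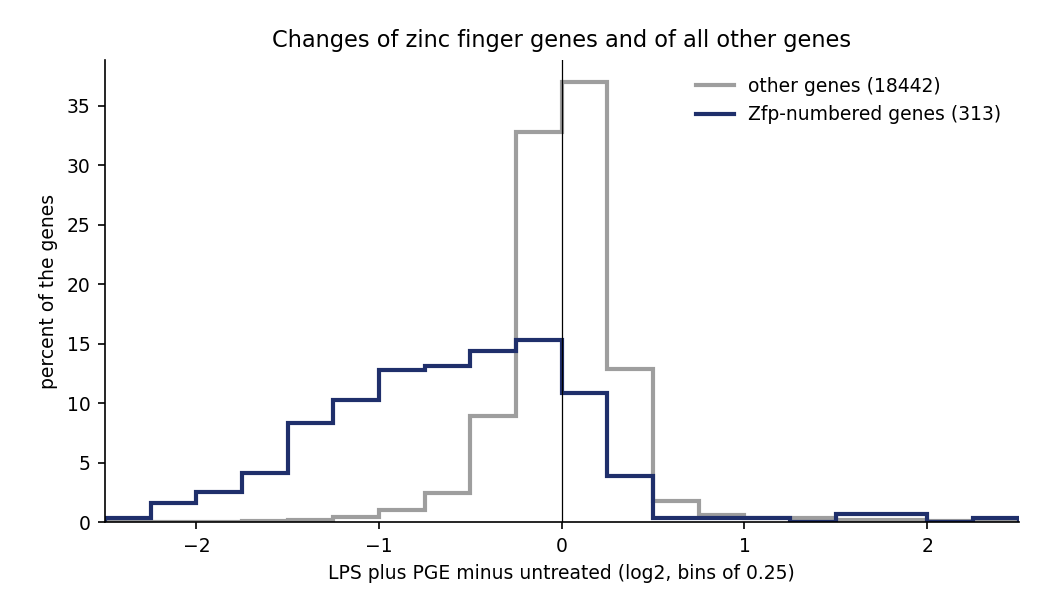
Percent of the genes in bins of 0.25 of change (log2, LPS plus PGE minus untreated) for the 313 Zfp-numbered genes (dark blue) and the 18442 other genes (grey); genes beyond 2.5 are not drawn. The Zfp-numbered genes spread to the left, with a median of -0.55, and the other genes peak around 0.

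Not every Zfp-numbered gene fell. The 6 that rose at least 2-fold were Zfp36, Zfp667 (1.86 ± 0.11), Zfp131 (1.80 ± 0.09), Zfp719 (1.65 ± 0.07), Zfp703 (1.57 ± 0.08) and Zfp263 (1.10 ± 0.08), the last named after its values were seen. With predicted and small RNA genes left out, the largest fall of a gene with another name was that of Dnajc28, a J-domain protein. It went from 7.58, 7.58, 7.56 and 7.52 to 5.01, 5.23, 5.36 and 5.31 (-2.33 ± 0.09). Among FoxO- and glucocorticoid-linked genes 3 of 29 fell at least 2-fold, and 2 rose. Txnip, which binds thioredoxin and limits glucose uptake, read 11.79, 11.94, 11.94 and 12.00 untreated and 10.26, 10.26, 10.15 and 10.06 treated (-1.73 ± 0.08) and was the brightest gene among all 2-fold falls. Arrdc2, a relative of it in the arrestin family, fell (-1.25 ± 0.08), and Pik3ip1, an inhibitor of PI3 kinase, fell (-1.05 ± 0.11). The Pik3ip1 fall was under 2-fold without untreated replicate 4 (-0.98), after both other normalizations and with equal array medians (-0.97 to -0.89). A further relative, Arrdc3, read 9.58, 9.64, 9.65 and 9.78 untreated, 8.10, 7.65 and 8.34 with LPS and 9.77, 9.57, 9.74 and 9.78 with LPS plus PGE. Its LPS arrays were the only low ones, and the change here did not pass (0.06 ± 0.12).

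Some probe sets carry the names of microRNA genes, and mature microRNAs were not measured separately. Of 294 microRNA genes 6 rose at least 2-fold (2.0%, near the 1.86% of all genes) and 9 fell by that much (3.1%, beside 1.11% of all genes). The genes that follow are described singly, and the count of rises does not set microRNA genes apart. One mature arm of each of the 8 genes with the largest changes, and of Mir132 and Mir212, which share a seed, is printed from RefSeq (GRCm38.p6) with the seed, bases 2 to 8, in capitals, since the seed sets which transcripts a microRNA can pair with.
miR-155-5p: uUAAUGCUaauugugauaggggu
miR-221-3p: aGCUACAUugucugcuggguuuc
miR-222-3p: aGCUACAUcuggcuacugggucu
miR-132-3p: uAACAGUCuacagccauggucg
miR-212-3p: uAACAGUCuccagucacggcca
miR-27b-3p: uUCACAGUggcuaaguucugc
miR-24-3p: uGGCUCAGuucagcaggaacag
miR-340-5p: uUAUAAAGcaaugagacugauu
miR-181b-5p: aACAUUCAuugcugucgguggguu
miR-23b-5p: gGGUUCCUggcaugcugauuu
miR-221-3p and miR-222-3p share the seed GCUACAU, and miR-132-3p and miR-212-3p the seed AACAGUC. Mir155, encoded on chromosome 16, read 4.12, 4.84, 4.75 and 3.46 untreated and 8.71, 8.62, 8.54 and 8.62 treated (4.33 ± 0.23). Mir221 and Mir222, neighbours on chromosome X, rose by 3.26 ± 0.09 and 3.22 ± 0.15. Mir132 and Mir212, neighbours on chromosome 11 that are known CREB targets and are named here after their values were seen, rose by 1.08 ± 0.15 and 1.30 ± 0.08. The untreated mean of Mir132 lay below the lower quartile of the array, so that its rise is a lower limit. The rise was under 2-fold without LPS plus PGE replicate 3 (0.94) and after cyclic loess normalization (0.97). The LPS means of these 2 genes, 3.57 and 5.44, were close to the untreated means of 3.66 and 5.31. Mir23b, Mir27b and Mir24-1, which lie together on chromosome 13, fell. Mir27b read 7.31, 7.19, 7.36 and 7.25 untreated, 7.10, 7.12 and 7.40 with LPS and 5.96, 5.99, 5.66 and 5.78 with LPS plus PGE (-1.43 ± 0.09), and Mir23b and Mir24-1 fell by 1.46 ± 0.14 and 1.39 ± 0.12. With LPS alone none of these 3 differed from untreated past the threshold (limma adjusted p = 0.511, 0.706 and 0.84). Mir340 fell by 1.93 ± 0.16 and Mir181b-1 by 1.74 ± 0.14. Mir15a, which lies within the noncoding gene Dleu2, fell (-1.05 ± 0.16). Its fall was under 2-fold, -0.99 to -0.94, when untreated replicate 3 or treated replicate 1 or 4 was left out. The same held after quantile (-0.96) and cyclic loess (-0.91) normalization and with equal array medians (-0.97). Dleu2 itself fell (-1.10 ± 0.35) with a wide spread in untreated arrays (4.23, 3.92, 5.32 and 3.97). The Dleu2 call ended without untreated replicate 3 (-0.78, limma adjusted p = 0.0827), without untreated replicate 1 and without each of the 4 LPS plus PGE arrays (limma adjusted p from 0.054 to 0.0852).

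The combined stimulus was set beside LPS alone for the genes above; the untreated arrays are not part of that difference, but the LPS plus PGE arrays are in both comparisons. Against LPS, 24.7% of all genes passed. Among the 2-fold calls against untreated, the 12 largest positive differences from LPS ran from 2.98 ± 0.08 for Hilpda to 4.80 ± 0.20 for Dusp14. The 12 largest negative ones ran from -1.50 ± 0.15 for Nupr1 to -0.98 ± 0.09 for Irf1. A gene raised by LPS and near its untreated level with LPS plus PGE is not a 2-fold call here. Such genes were left out beforehand, so the sizes of positive and negative differences cannot be compared. Of the first 12 genes, Il1r2 and Thbs1 had no passing change with LPS alone (0.23 ± 0.15 and -0.08 ± 0.14), and Nr4a2 (0.46 ± 0.09) and Nfil3 (0.40 ± 0.09) had small ones. Of the second 12, Il12b, Irf1 and Nupr1 were raised by both stimuli and Osgin1 was lowered by both (-0.73 ± 0.12 with LPS).

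**Figure D5:**
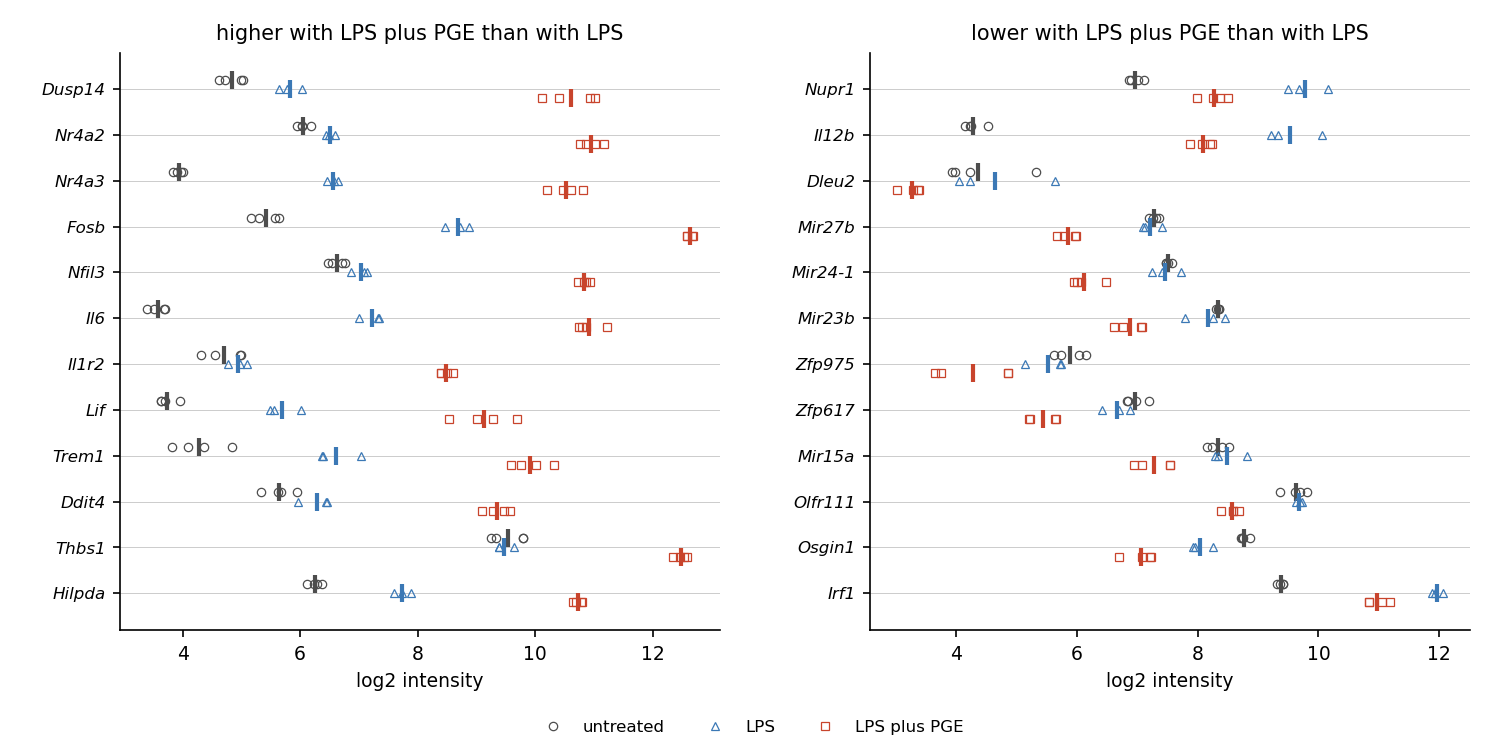
Log2 intensity in each untreated (circles), LPS (triangles) and LPS plus PGE array (squares), with ticks at the group means, for the 24 genes called at 2-fold against untreated whose level differed most from that with LPS. The left panel holds genes higher with LPS plus PGE (Dusp14 by 4.80) and the right panel genes lower with it (Nupr1 by a difference of -1.50).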

How the data were processed

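RNA of 11 samples (4 untreated, 3 LPS, 4 LPS plus PGE) was measured on Affymetrix Mouse Gene 1.1 ST arrays. The authors' deposited values of 35309 probe sets were taken as log2 intensities from their range and from the RMA method. Per the submitters' processing notes RMA, Affymetrix Power Tools, Partek and R 2.13.1 were used, with roles not given. One LPS array was left out by the authors for quality, per the labels. Of the probe sets, 21143 carried 1 gene symbol in the platform annotation, 1870 several and 12296 none. Those with 1 symbol were reduced to 18755 genes by the highest mean over all arrays. Values run from 1.2 to 13.81; precision is limited by how many arrays there were.

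Group means were fitted to all 11 arrays with limma 3.58.1 (R 4.3.3; 8 residual and 3.77 prior degrees of freedom), two-sided, with Benjamini-Hochberg adjustment over all genes. All p-values in the text come from this tool. The fit was tested on simulated data. A gene was below the lower quartile where its untreated mean was under the lowest such quartile of the 4 untreated arrays.

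The comparison, gene lists, motifs and tests were chosen with earlier results of these data known. Genes were named by a rule: the 20 largest rises and 15 largest falls without overlap, up to 6 rises, 6 falls and 3 non-passing members of each pathway list, 21 fixed genes, the 8 largest microRNA changes, up to 5 in each direction of the other pattern lists, the 12 largest differences from LPS in each direction, and markers. A further 28 genes were named after their values were seen: Arrdc3, Bdnf, Ccl3, Ccl4, Clcf1, Cpa3, Csf1, Csf2, Csf3, Dusp6, Fosl2, Gnas, Il12a, Jun, Mafg, Mir132, Mir212, Nfkb2, Odc1, Osm, Ppargc1a, Rel, Rela, Relb, Rgs2, Spred2, Spry1 and Zfp263. The 20 rises and 15 falls were ranked after symbols of predicted genes and small RNA genes had been left out. A gene can stand in several lists. Listed genes without a matching symbol were not analysed here. Promoter and microRNA sequences came from RefSeq (GRCm38.p6), used for sequences only. The alternatives were other normalizations, variance models, filters, probe set rules, leaving out arrays singly, and a block on replicate number. Plots used matplotlib 3.10.9.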

Additional observations from a re-analysis of the deposited data

Results flagged for a closer look

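In each of 422 groups of 4 arrays, 1 group per gene described and condition, the highest and the lowest array were set against the other 3. The groups did not include Hk2, Pfkp and Pfkfb4. In 18 groups 1 array stood apart by more than Dixon's critical value, where chance gives about 1 in 20 groups. Values here are log2 intensities. LPS plus PGE replicate 1 was low for Aif1 (7.87), Dusp6 (8.56) and S1pr2 (8.22), against 8.05 to 8.06, 8.87 to 8.90 and 8.53 to 8.59 in the other 3 arrays. It was high for Gapdh (13.37) and Il10 (11.98). Untreated replicate 1 was low for Atf3 (12.04) and Dusp1 (10.03) and high for Bdnf (3.40), Cd40 (7.48) and Spred2 (8.69). Cd40 read 6.95 to 7.03 in the other untreated arrays. Untreated replicate 3 was low for Hbegf (4.19, against 4.76 to 4.87) and Mxi1 (8.85), and untreated replicate 4 for Kdm6b (6.95) and Nfkbia (9.44). LPS plus PGE replicate 2 was low for Nod2 (7.29, against 7.56 to 7.58), replicate 4 was low for Lyz2 (12.83) and Ptger2 (6.29), and replicate 3 was high for Tnfaip3 (12.18). Of these genes, the Aif1 fall did not pass without the array that stood apart, as given above.

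Probe sets without a gene symbol were outside the gene comparison. In a fit of all probe sets, 126 of these rose and 775 fell at least 2-fold.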

How the results depend on the processing

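Of the 557 genes called at 2-fold, 508 kept that call after quantile normalization, 509 after cyclic loess normalization and 523 with equal array medians, while counts of small changes moved more. Passing falls numbered 2206 after quantile, 1788 after cyclic loess, 2119 with equal medians and 5135 over all probe sets, in place of 3359. Passing rises numbered 4499 with equal medians and 999 without genes below the median level, and all passing genes 3917 after cyclic loess. The median change of all genes was 0.10 with equal medians, 0.02 in the deposited values. Calls of 2-fold numbered 1542 over all probe sets (1026 falls), and a 1.5-fold threshold gave 1322 (605 rises and 717 falls). The 1 fall each among LPS sensing and among SOCS, PIM and JAK-STAT genes became 0 under quantile, cyclic loess and equal medians. Without genes below the median, 2-fold rises numbered 5 for growth factors, 1 for mast cell markers and 3 for microRNA genes, and falls 46 for Zfp-numbered genes, 4 for microRNA genes and 0 for histones, since dim members were then not tested. Leaving out each array in turn gave 549 to 585 calls of 2-fold and 4701 to 6143 passing genes. Chemoattractant receptors then had 1 to 2 rises of 2-fold (Ccr1). Of 163 genes described as 2-fold, Dleu2 was the 1 that did not pass under some alternative, and 7, Dleu2 included, lost the 2-fold call in at least 1. No label says that equal replicate numbers mark paired arrays. With the replicate block over 11 arrays 556 genes were called at 2-fold and 6124 passed, and with the block and only the 8 arrays 557 and 6248. Deviations of same-numbered untreated and LPS plus PGE arrays correlated at 0.15, 0.15, 0.07 and 0.15, each array best with its own number, which is a hint from the data and not the design. The block ended the calls of Spi1 (adjusted p = 0.0581 over 11 arrays) and, over 11 arrays, Dleu2 (0.0508), and over 8 arrays Ly96 passed (0.0219). Signal near the floor of the array limits the folds of dim genes, which are then lower limits.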

Other observations

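Survival, adhesion and proliferation genes also changed. Of 24 inflammasome, survival and death genes 4 rose at least 2-fold and 0 fell by that much. Phlda1, a pleckstrin-domain protein, read 4.60, 4.91, 4.92 and 5.14 in untreated arrays and 10.28, 10.02, 10.08 and 10.26 in treated arrays (5.27 ± 0.11). Nlrp3, the sensor of the main macrophage inflammasome, read 7.62, 7.62, 7.75 and 7.76 and 11.34, 11.06, 11.19 and 11.29 (3.53 ± 0.09), and neither gene had overlapping groups. Cflar, which blocks caspase-8, rose by 1.98 ± 0.08, and Bcl2l11, the death-promoting protein BIM, by 1.26 ± 0.08. Casp1, the caspase that matures interleukin-1, fell by a small amount (-0.33 ± 0.05), beside a list median of -0.06. Bbc3, a death-promoting BCL2 relative, fell (-0.86 ± 0.08). Of 22 integrin and adhesion genes Icam1 (2.28 ± 0.08) and Vcam1 (1.35 ± 0.18), ligands of leukocyte integrins, rose at least 2-fold and 0 fell by as much. Of 23 cell cycle genes 4 rose at least 2-fold, Plk2 (1.69 ± 0.07), a polo-like kinase, E2f8 (1.56 ± 0.10), a repressor of the E2F family, Cdkn1a (1.30 ± 0.05), the cell cycle inhibitor p21, and Plk3 (1.15 ± 0.08), a second polo-like kinase.

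Among 323 solute carrier genes 9 rose at least 2-fold (2.8%, near the 1.86% of all genes) and 0 fell by that much (1.11% of all genes). Slc25a33, a mitochondrial carrier of pyrimidine nucleotides, read 5.92, 5.74, 5.65 and 6.05 untreated and 8.29, 8.01, 8.35 and 8.38 treated (2.42 ± 0.10), without overlap. Slc15a2, a peptide transporter, rose by 1.96 ± 0.16 and Slc20a1, a phosphate transporter, by 1.62 ± 0.08. Of 45 histone genes H3c15 fell (-1.71 ± 0.24), and 0 others changed 2-fold; histone genes resemble each other in sequence, and signal from relatives was not tested. Of 18 clock and PAR-bZIP genes 3 rose at least 2-fold, Bhlhe40 (1.20 ± 0.08) beside Nfil3 and Per1, while Bhlhe41, its close relative, fell (-0.95 ± 0.10). The 69 ribosomal protein genes, 72 respiratory chain genes and 38 proteasome genes had no 2-fold change in either direction, and 0, 1 and 1 of them rose by smaller amounts. Of these, 19, 9 and 4 fell by smaller amounts, where 13.8% of all genes rose and 17.9% fell at any size. After cyclic loess normalization 5, 2 and 1 fell by smaller amounts, beside 1788 falls among all 18755 genes. The 17 measured adenosine and purine signalling genes had no 2-fold change, with Nt5e, the enzyme CD73 that forms adenosine, at 0.72 ± 0.13. The adenosine receptor genes Adora1, Adora2a, Adora2b and Adora3 were not analysed here.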
